A study of Mus musculus with 34 samples.

Results

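Livers of mice with a Pdgf-c transgene were compared with livers of wild-type mice at week 48, the age at which the study also looked for liver tumours. The members were chosen by their labels alone: 5 transgenic livers, not tumours, numbered 1 to 5, and 4 wild-type livers, numbered 1 to 4, which are 9 of the 34 samples of the series. The transgenic mice carry the strain label Pdgf-c Tg and the wild-type mice the label C57/B6, and both groups were kept on a basal diet after weaning at week 4, without the peretinoin given to other groups of the series. For the comparison between ages, 5 transgenic and 5 wild-type livers of week 20 were used as well. The labels do not give the promoter of the transgene, the sex of the mice, the background of the transgenic line, or whether each liver came from a separate animal, so the p-values measure the spread between these samples. Each sample was whole liver, and in such bulk RNA fewer cells of a type and less RNA per cell cannot be told apart.

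PDGF-C is a secreted growth factor of the platelet-derived growth factor family that signals through receptor tyrosine kinases on mesenchymal cells. In the liver these receptors sit on hepatic stellate cells and portal fibroblasts, which take up a myofibroblast state after injury and lay down collagen. Scarring goes along with recruitment of monocytes, remodelling of the sinusoidal endothelium and, over time, loss of specialised hepatocyte functions.

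Expression was read as the signal of an Affymetrix Mouse Genome 430 2.0 array, a linear intensity scaled by the authors to the same trimmed mean on every array. Differences are transgenic minus wild type on the scale log2(signal + 16), with moderated standard errors, and limma calls a gene where its p, adjusted by the method of Benjamini and Hochberg, is under 0.05. Of 13099 genes tested, 1858 (14.2%) were called higher and 862 (6.58%) lower, 20.8% in either direction, and 824 and 140 of them differed by at least 2-fold. The median difference of all genes was 0.0355. After centring each array on its median signal that figure was 0.116, and the calls became 2225 higher and 413 lower, so that higher calls made up 84.3% of calls in place of 68.3%. Small falls are to be read against that shift. Counts of list members below are to be read beside the 14.2% and 6.58% of all genes, and list medians beside 0.0355. The signals of the groups did not overlap for 2804 genes (21.4%), and 2125 of these were called. The liver label fitted its markers: 9 hepatocyte markers, among them Alb and Ttr, averaged log2 levels of 13.91 to 14.06 in the transgenic livers and 14.13 to 14.27 in the wild-type livers. Of these 9 genes 0 were called higher and 5 lower, and 7 lay below the wild-type livers without overlap. Their falls numbered 0 without liver 4 of each group, or without these and transgenic liver 1. Under quantile normalisation or after median centring 1 fell. Alb, the gene of serum albumin, had a mean signal of 24488 ± 1759 (SD, n = 5) in transgenic and 30382 ± 3198 (SD, n = 4) in wild-type livers (log2 difference -0.31 ± 0.12, adjusted p = 0.0786).

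Some of the 9 samples held transcripts of tissues other than liver. The 20 skeletal muscle genes measured had mean log2 levels of 7.65, 5.92, 5.99, 12.93 and 6.08 in transgenic livers 1 to 5, against 5.97, 6.36, 6.33 and 10.89 in wild-type livers 1 to 4. Liver 4 of each group was the highest of its group for all 20 genes, with signals of 1427 to 24596.5 in transgenic liver 4 and 502 to 9473 in wild-type liver 4. Acta1, the actin of skeletal muscle fibres, gave signals of 1410.5, 48.6, 56.6, 24596.5 and 96.5 in the transgenic livers, against 20, 187, 93.4 and 9473 in the wild-type livers. Ckm, the creatine kinase of muscle, gave 316, 16.8, 38.3, 18065 and 117 in the transgenic livers, against 114, 55.9, 101 and 5121 in the wild-type livers. Transgenic liver 1 carried a smaller amount of both. The other genes of this list were Mylpf, Tnnt3, Tnni2, Tnnc2, Myh1, Myh2, Myh4, Atp2a1, Actn3, Mybpc2, Pvalb, Myl1, Mb, Eno3, Neb, Myoz1, Cox6a2 and Pygm, and 0 of the 20 were called in limma (0 at an unadjusted p under 0.05).

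Pancreatic acinar transcripts appeared in 1 of the 9 samples and in 1 of the week 20 samples. The 19 acinar genes measured averaged 5.77, 5.81, 5.72, 10.69 and 5.89 on the log2 scale in transgenic livers 1 to 5, against 5.59, 6.07, 5.89 and 6.03 in wild-type livers 1 to 4, and transgenic liver 4 was the highest of its group for all 19. Ctrb1, which encodes chymotrypsinogen, gave signals of 18.3, 41.1, 22.5, 4929.7 and 27.2 in the transgenic livers, against 15.2, 44.1, 33.7 and 27.4 in the wild-type livers. Cpa1, a carboxypeptidase of the pancreas, gave 5.2, 5.7, 7.7, 2579 and 7.9 in the transgenic livers, against 12.4, 11.8, 9.2 and 4.0 in the wild-type livers. Of the livers of week 20, transgenic liver 5 held such transcripts: its acinar genes averaged 10.49, against 5.63 to 6.03 in the other 4 transgenic and 5.52 to 6.92 in the 5 wild-type livers of that age, and its signals were 3974 for Ctrb1 and 2458.5 for Cpa1. The rest of the list was Cela1, Cela2a, Cela3b, Cpb1, Ctrc, Ctrl, Pnliprp1, Pnliprp2, Clps, Cel, Sycn, Zg16, Prss2, Reg1, Spink1, 2210010C04Rik and Rnase1. Of the 18 that passed the filter on low signals only Spink1 was called (1.89 ± 0.57), and Spink1 is also a gene of liver tumours. Transcripts of fat were also highest in both livers numbered 4: Adipoq, which encodes the adipocyte hormone adiponectin, gave signals of 57.2, 64.2, 11.5, 841 and 33.7 in the transgenic livers, against 31.9, 68.5, 28.6 and 681 in the wild-type livers. The 7 adipocyte genes measured, of which 6 passed the filter on low signals, averaged 8.88, 9.17, 9.02, 10.36 and 9.09 in transgenic livers 1 to 5, against 8.75, 8.63, 8.72 and 9.91 in wild-type livers 1 to 4. Counts of list members are therefore also given without both livers numbered 4, or without the 3 livers with muscle transcripts (transgenic 1 and 4, wild type 4; the muscle-bearing livers), where that moved a count of 2 or more by over 1.5 times, and likewise under quantile normalisation and median centring. Counts of 0 or 1 are not followed in this way, except for the endoplasmic reticulum list. The setting without 3 livers was chosen after the data were seen. Where the loss of 1 liver ended the call of a gene named here, the liver whose loss gave the highest adjusted p is given with that p. Other settings that ended a call are named after the gene, and a value after them is its log2 difference there, given where it shrank by over 1.5 times. Spink1 (transgenic liver 4, adjusted p = 0.0598) lost its call without the liver named. Spink1 (without both livers numbered 4, without the muscle-bearing livers or with an offset of 64 at 1.08) lost its call under other settings.

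**Figure D1:**
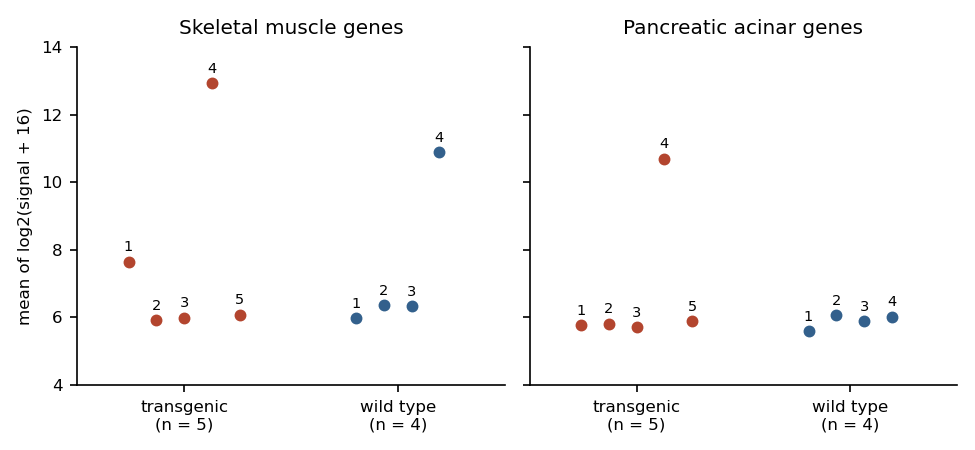
Mean level of the skeletal muscle genes (left) and pancreatic acinar genes (right) in each liver, as the mean of log2(signal + 16) over the genes of the list. Each point is 1 liver, with the 5 transgenic livers left of the 4 wild-type livers and the liver's number beside the point; liver 4 stands highest in both groups for muscle, and transgenic liver 4 alone is high for the pancreas list.

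The PDGF receptors were far higher in transgenic liver, while the ligand that names the transgene differed less. Pdgfc gave signals of 1219, 828.5, 517, 578 and 846 in the transgenic livers, against 481, 519, 469 and 458 in the wild-type livers (log2 difference 0.65 ± 0.21, adjusted p = 0.0272). Transgenic liver 3 overlapped the wild-type range, and the call ended under 10 of the 21 alternatives, among them the loss of transgenic liver 1, 2 or 5 or of wild-type liver 1, 3 or 4. Whether this probe set covers the transgene is not given in the sources used here. Pdgfra, the alpha receptor, which binds PDGF-C, gave 2849.8, 2196, 1860.0, 2170.1 and 1787.5 in the transgenic livers, against 236.5, 289, 263 and 358.5 in the wild-type livers (log2 difference 2.85 ± 0.31, adjusted p = 6.94e-08). Pdgfrb, the beta receptor, gave 2116.5, 2065, 1679, 2223 and 1575 in the transgenic livers, against 272, 331, 273 and 314 in the wild-type livers (log2 difference 2.63 ± 0.24, adjusted p = 4.74e-09). All 5 transgenic livers stood far above all 4 wild-type livers for both receptors. Plat, the tissue plasminogen activator, a protease that releases active PDGF-C, gave 943, 576, 535, 850.3 and 879.6 in the transgenic livers, against 97.2, 46.5, 104 and 134 in the wild-type livers (log2 difference 2.83 ± 0.29, adjusted p = 3e-08), again with no overlap.

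Of the 9 genes of the PDGF list 7 were called higher and 0 lower, against 14.2% and 6.58% of all genes, and their median difference was 1.11 against 0.0355 for all genes. Pdgfd, the ligand of the beta receptor, gave 344, 304, 231, 372 and 259.9 in the transgenic livers, against 93.1, 85.1, 74.8 and 133 in the wild-type livers (log2 difference 1.51 ± 0.20, adjusted p = 1.48e-06). Pdgfb gave 263, 224, 185, 384 and 271 in the transgenic livers, against 134, 134, 88.1 and 112 in the wild-type livers (log2 difference 1.06 ± 0.24, adjusted p = 0.00132). Pdgfrl, a receptor-like gene without a kinase, gave 113, 98, 78.4, 117 and 126 in the transgenic livers, against 41.9, 18.6, 51.4 and 58.6 in the wild-type livers (log2 difference 1.11 ± 0.26, adjusted p = 0.0027). These 3 genes did not overlap between the groups either. Pdgfa (0.15 ± 0.19, adjusted p = 0.633) and the co-receptor Nrp1 (-0.41 ± 0.20, adjusted p = 0.142) did not pass and overlapped between the groups. Averaging all probe sets of a gene moved Pdgfb to 0.54, still called.

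In each class of extracellular matrix genes measured, more members rose than fell. Of 6 fibrillar collagens, the rope-like collagens of scar, 5 rose and 1 fell. Col1a1, a chain of type I collagen, gave 445, 359.5, 476, 691 and 505 in the transgenic livers, against 26.5, 83.7, 26.5 and 146 in the wild-type livers (log2 difference 2.77 ± 0.31, adjusted p = 9.79e-08). Col5a2, a chain of type V collagen, gave 433, 887, 1314, 709 and 739.5 in the transgenic livers, against 137, 90.4, 116 and 163 in the wild-type livers (log2 difference 2.48 ± 0.30, adjusted p = 4.87e-07). The differences were 1.94 for Col3a1, 1.67 for Col1a2 and 0.93 for Col5a1. Col5a3, the third chain of type V collagen, moved against its partners, with signals of 334, 437, 319, 312 and 393 in the transgenic livers, against 445, 731, 919 and 502 in the wild-type livers (log2 difference -0.78 ± 0.23, adjusted p = 0.0158). The groups did not overlap for Col5a3, but its call ended without wild-type liver 3 (adjusted p = 0.0972) or wild-type liver 2. Col5a1 and Col5a3 (without the muscle-bearing livers) lost their calls under the settings named.

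Among the collagens outside the fibrils, Col6a2 changed most. Its signals were 1599, 1126.5, 1347, 2402 and 1457 in the transgenic livers, against 239.9, 75.7, 24.2 and 349 in the wild-type livers (log2 difference 3.51 ± 0.45, adjusted p = 1.27e-06), without overlap, and the wild-type livers themselves spread widely. Col6a1 and Col6a3, the partner chains of collagen VI, differed by 2.29 ± 0.32 and 2.26 ± 0.28, and Col14a1 by 1.02 ± 0.23. In all 5 of 8 genes of that list rose and 1 fell (Col13a1, -0.66 ± 0.23). Of 16 basement membrane genes 10 rose and 0 fell. Lama2, a laminin chain, gave 441, 355, 351.5, 527 and 319.5 in the transgenic livers, against 46.8, 112, 6.3 and 66.9 in the wild-type livers (log2 difference 2.72 ± 0.34, adjusted p = 9.31e-07). The next by p were Nid1, which links laminin to collagen IV, and the collagen IV chains, with 2.08 for Nid1, 2.25 for Col4a5, 1.25 for Col4a2 and 1.52 for Col4a1. Lama5 (-0.69 ± 0.41, adjusted p = 0.244) was among the 6 that did not pass. Col13a1 (transgenic liver 4, adjusted p = 0.137) lost its call without the liver named. Col13a1 (several settings, with the highest adjusted p, 0.183, without both livers numbered 4) lost its call under other settings.

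Proteoglycans and elastic fibre genes were higher where they passed. Of 9 small leucine-rich proteoglycans, which space collagen fibrils, 6 rose and 0 fell. Lum (lumican) gave 5526, 4933, 3666.5, 4557 and 5312 in the transgenic livers, against 1039, 878.5, 413 and 1041 in the wild-type livers (log2 difference 2.56 ± 0.37, adjusted p = 7.28e-06). The other rises were 1.98 for Bgn, 2.25 for Dpt, 1.74 for Ogn, 1.47 for Prelp and 1.20 for Dcn. Of 12 elastic fibre and microfibril genes 9 rose and 0 fell, led by Emilin1 (2.14 ± 0.24), Fbln5 (2.12 ± 0.27), Ltbp1 (1.49 ± 0.19) and Ltbp3 (0.98 ± 0.17). In these lists wild-type liver 4, which held muscle transcripts, was the highest wild-type liver: the proteoglycans averaged 9.43 there and 8.46 to 8.90 in the other 3, against 9.83 to 10.34 in the transgenic livers. What muscle tissue adds to these levels was not tested, but the counts without the 3 livers with muscle transcripts were 6 proteoglycans and 7 elastic fibre genes higher.

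Matricellular proteins, which sit in the matrix and signal to cells, changed in both directions. Of 13 genes 6 rose and 2 fell, a count of falls that was 1 without both livers numbered 4, without the muscle-bearing livers, under quantile normalisation or after median centring. Crispld2, a secreted matrix protein, gave 795.5, 502, 586, 945 and 423 in the transgenic livers, against 11.9, 25.1, 18.9 and 111 in the wild-type livers (log2 difference 3.75 ± 0.32, adjusted p = 1.08e-09). Svep1, a large adhesion protein, gave 302, 393, 320.0, 364.5 and 394 in the transgenic livers, against 15.4, 12.4, 10.1 and 15.7 in the wild-type livers (log2 difference 3.65 ± 0.36, adjusted p = 1.23e-08). Neither gene overlapped between the groups, and Svep1 was below the offset of 16 in every wild-type liver. An offset of 64 in place of 16 lowered them to 2.79 and 2.43. Smoc2, Mgp (matrix Gla protein, an inhibitor of calcification), Thbs2 and Sparcl1 rose by 2.48, 3.08, 1.96 and 2.41. Postn, which encodes periostin, gave 214, 151, 198, 354 and 141 in the transgenic livers, against 335, 554, 346 and 586 in the wild-type livers (log2 difference -1.08 ± 0.33, adjusted p = 0.0198). Transgenic liver 4 overlapped the wild-type range for Postn, and the call ended without wild-type liver 2 or 4 or transgenic liver 5 (highest adjusted p = 0.0681, without wild-type liver 4). Vtn, the other fall, differed by -0.29 ± 0.09, and the connective tissue growth factor Ccn2 by 0.58 ± 0.53 (adjusted p = 0.481). Vtn (wild-type liver 2, adjusted p = 0.0938) lost its call without the liver named. Vtn (several settings, with the highest adjusted p, 0.495, under quantile normalisation at -0.051) lost its call under other settings.

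Among the enzymes that finish and cut collagen more members rose than fell, and 8 and 7 of the lists did not pass. Of 16 genes of cross-linking and maturation 7 rose and 1 fell. Loxl1, a lysyl oxidase that cross-links elastin, gave 945, 726, 948, 1049.6 and 888 in the transgenic livers, against 153, 5.3, 97 and 208 in the wild-type livers (log2 difference 3.24 ± 0.42, adjusted p = 1.22e-06). Pcolce, an enhancer of procollagen cleavage, the prolyl hydroxylase P3h3 and the lysyl hydroxylase Plod2 differed by 2.06, 1.78 and 2.06. Bmp1, the procollagen proteinase, was the fall (-0.52 ± 0.13, adjusted p = 0.00427). Of 19 matrix proteases and inhibitors 11 rose and 1 fell. Adamts5, an aggrecanase, gave 992, 1269.7, 1008, 718 and 1039 in the transgenic livers, against 88, 128, 33.1 and 138 in the wild-type livers (log2 difference 3.28 ± 0.29, adjusted p = 1.81e-09), and the groups stood well apart. Mmp13, the main collagenase of mice, gave 155, 148, 267, 119 and 142 in the transgenic livers, against 26.8, 19.8, 21.3 and 3.0 in the wild-type livers (log2 difference 2.45 ± 0.46, adjusted p = 0.000234), also without overlap. The gelatinase Mmp2 rose by 2.44, the inhibitors Timp2, Timp3 and Timp1 by 1.71, 1.79 and 1.71, and the serine protease Htra1 by 3.03. Mmp23 rose by 2.09. Proteases and their inhibitors were higher side by side. Bmp1 (with averaged probe sets) lost its call under that setting.

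**Figure D2:**
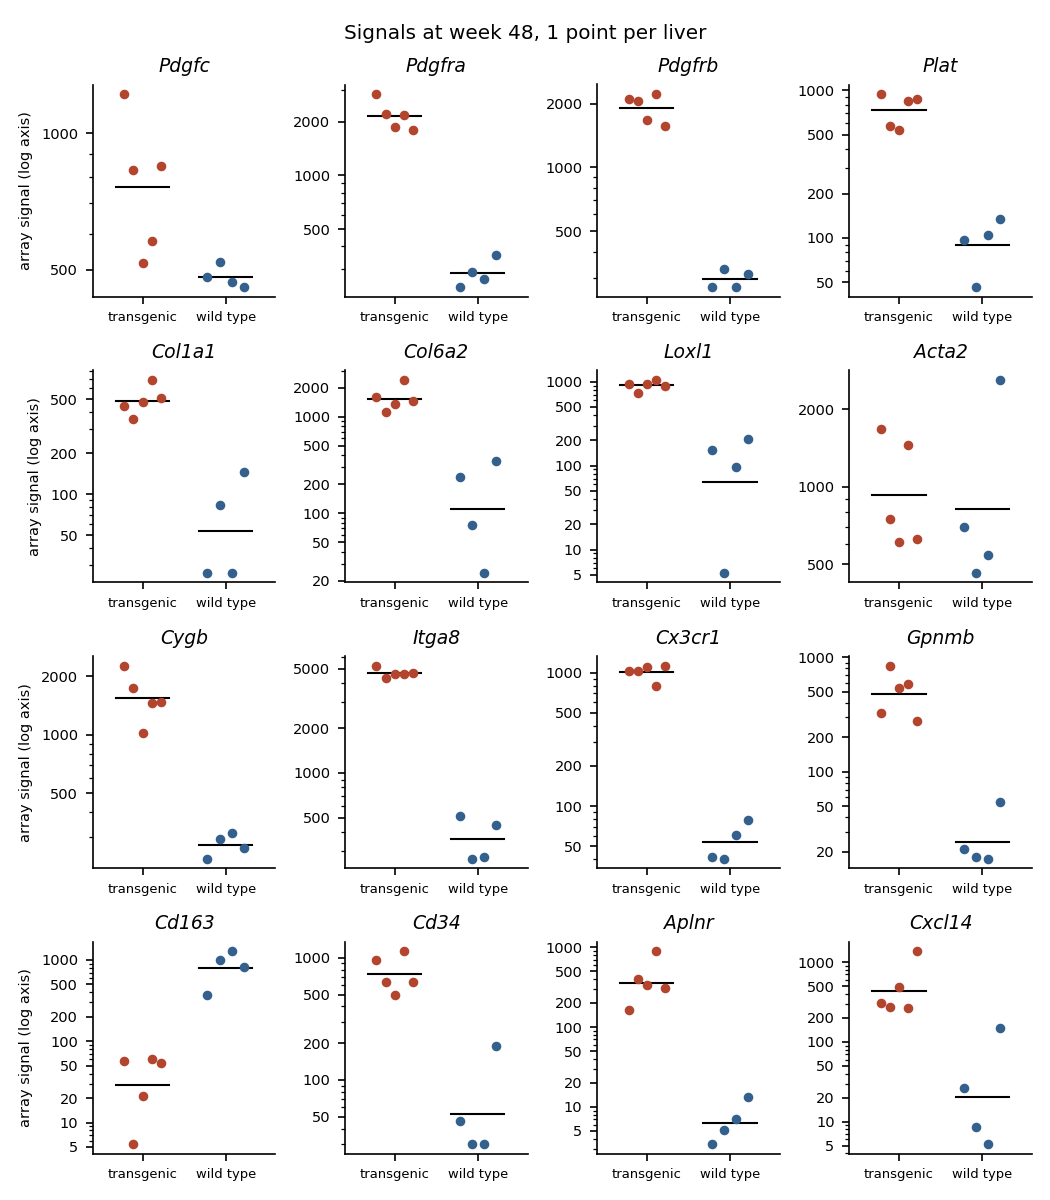
Signals of 16 named genes in every liver at week 48, on a log axis in array signal units. Each point is 1 liver, the 5 transgenic livers left of the 4 wild-type livers in each panel, and the bar is the geometric mean of the group; apart from Pdgfc and Acta2, the groups do not overlap in any panel.

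Of 22 genes of the TGF-beta family, the main profibrotic signal of liver, 15 rose and 0 fell, with a median of 0.80. Tgfb3 differed most among the 3 TGF-beta ligands, with signals of 197, 148, 134.5, 273 and 162.5 in the transgenic livers, against 7.7, 6.7, 27.6 and 96.7 in the wild-type livers (log2 difference 2.26 ± 0.40, adjusted p = 9.09e-05). The ligand Tgfb1 differed by 0.82 ± 0.25 and Tgfb2 by 1.15 ± 0.40, calls that depended on single livers. The receptors Tgfbr1, Tgfbr2 and Tgfbr3 differed by 0.54, 1.07 and 0.70. Bambi, a decoy receptor that dampens TGF-beta signals, gave 741, 681, 508, 555 and 498 in the transgenic livers, against 120.3, 165, 109 and 185 in the wild-type livers (log2 difference 1.94 ± 0.22, adjusted p = 9.79e-08). The inhibitory Smad6 and Smad7 rose by 1.05 and 0.86, and Tgfbi, a matrix protein induced by TGF-beta, by 1.89. Ligands, receptors and inhibitors of this pathway were all among the rises. Tgfb1 (wild-type liver 1, adjusted p = 0.0917), Tgfb2 (wild-type liver 2, adjusted p = 0.171) and Tgfbr3 (wild-type liver 3, adjusted p = 0.0791) lost their calls without the liver named. Tgfbr3 (without the muscle-bearing livers), Tgfb1 (without the muscle-bearing livers or with averaged probe sets at 0.22) and Tgfb2 (without the muscle-bearing livers, with an offset of 1 or with the 9 arrays fitted alone) lost their calls under other settings.

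Of 22 markers of stellate cells and myofibroblasts 12 rose and 1 fell, and the contractile genes of myofibroblasts named here did not pass. Cygb (cytoglobin), a stellate cell marker, gave 2264.5, 1739, 1027, 1452 and 1472 in the transgenic livers, against 232, 291, 313.5 and 262.5 in the wild-type livers (log2 difference 2.43 ± 0.22, adjusted p = 3.34e-09). Vim, an intermediate filament of mesenchymal cells, gave 6554, 5019, 4408, 6327 and 5644.5 in the transgenic livers, against 1474, 1321, 935 and 2759.7 in the wild-type livers (log2 difference 1.87 ± 0.26, adjusted p = 2.79e-06). Hand2 and Lrat, the enzyme that stores retinol in stellate cells, rose by 1.89 and 1.33. Acta2, the smooth muscle actin by which myofibroblasts are usually recognised, gave 1670.5, 753, 613, 1454 and 625.5 in the transgenic livers, against 699, 464, 543 and 2597.5 in the wild-type livers (log2 difference 0.17 ± 0.34, adjusted p = 0.765). Its highest values lay in the livers with muscle transcripts (transgenic 1 and 4, wild type 4), and without these 3 its difference was 0.23 (adjusted p = 0.621). Tagln (0.88 ± 0.45), Myl9 (0.67 ± 0.41) and Des (1.14 ± 0.54) did not pass either. What muscle tissue adds to their signals was not tested, so the missing calls do not show unchanged levels. Angptl6 was the fall (-1.07 ± 0.25). The related collectins Colec10 and Colec11 moved in opposite directions: Colec11 gave 7869.6, 6289, 8950.0, 6595 and 9161 in the transgenic livers, against 3659.9, 3684, 3669.6 and 4069 in the wild-type livers (log2 difference 1.03 ± 0.22, adjusted p = 0.000932), whereas Colec10 fell, with 193, 104, 56.4, 134 and 46.7 in the transgenic livers, against 938, 1165, 978 and 1029 in the wild-type livers (log2 difference -3.23 ± 0.48, adjusted p = 9.27e-06).

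Of 18 integrins and focal adhesion genes 9 rose and 0 fell. Itga8, the alpha chain of an integrin of stellate and smooth muscle cells, gave 5257, 4321.5, 4585, 4649.7 and 4676 in the transgenic livers, against 516, 265, 272 and 448 in the wild-type livers (log2 difference 3.65 ± 0.28, adjusted p = 2.64e-10). Every transgenic liver was above every wild-type liver. Itgb8, which forms an integrin that activates latent TGF-beta, gave 433, 432, 219, 354 and 203 in the transgenic livers, against 60.4, 57.6, 51.5 and 89.5 in the wild-type livers (log2 difference 2.05 ± 0.33, adjusted p = 3.47e-05). Itgb5 and the leukocyte chain Itgax differed by 0.93 and 1.98, while Itgb1 (0.22 ± 0.12), Tln1 (0.22 ± 0.18) and Ilk (-0.14 ± 0.12), which most adherent cells use, did not pass. Of 19 cytoskeletal genes 10 rose and 0 fell, with 1.92 for Tmsb10, 1.22 for Tpm4, 1.99 for Tuba1a and 1.70 for Coro1a and the beta actin gene Actb at -0.28 ± 0.11 (adjusted p = 0.065). Emp1, a membrane protein of epithelial and stromal cells, was also named by size, with 2035, 1636, 1591.5, 2202 and 1529.6 in the transgenic livers, against 139, 46.1, 85.8 and 172 in the wild-type livers (log2 difference 3.95 ± 0.28, adjusted p = 6.13e-11). The average over the probe sets of Emp1 gave 2.0.

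Markers of recruited macrophages rose, and most markers of resident Kupffer cells did not pass. Of 18 genes of recruited monocytes and scar-associated macrophages 18 rose and 0 fell, with a median difference of 1.89, and 16 of them did not overlap between the groups, against 21.4% of all genes. Without the 3 livers with muscle transcripts the count stayed at 18. The lists were chosen with earlier results of these data known, so these counts describe the lists chosen. Of 15 markers of resident Kupffer cells 2 rose and 1 fell (median 0.36), which is near the 14.2% and 6.58% of all genes.

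Cx3cr1, the fractalkine receptor of monocyte-derived cells, gave 1026, 1028, 1098, 796 and 1129 in the transgenic livers, against 41.9, 40.5, 61.3 and 78.9 in the wild-type livers (log2 difference 3.87 ± 0.40, adjusted p = 3e-08). Gpnmb, a glycoprotein of lipid-laden and scar macrophages, gave 326, 846, 543, 581 and 279 in the transgenic livers, against 21, 17.9, 17.5 and 54.6 in the wild-type livers (log2 difference 3.57 ± 0.49, adjusted p = 3.49e-06). Trem2, a lipid receptor of the same cells, gave 28.6, 264, 146, 48.4 and 194.5 in the transgenic livers, against 18.8, 10.6, 11.7 and 20 in the wild-type livers (log2 difference 1.98 ± 0.49, adjusted p = 0.00381). The groups did not overlap for these 3, although Trem2 in transgenic livers 1 and 4 lay close to the wild-type livers. The integrin Itgax, the tetraspanin Cd9, the chemokine receptor Ccr2 and the elastase Mmp12 rose by 1.98, 1.95, 1.58 and 2.82, and Lyz2 (lysozyme) and Lgals3 (galectin 3) by 1.91 and 1.59. Chil3 gave 243, 146, 147, 121 and 929 in the transgenic livers, against 3.2, 2.1, 32.9 and 59.2 in the wild-type livers (log2 difference 2.87 ± 0.75, adjusted p = 0.00596), with transgenic liver 5 far above the other 4.

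Cd163, the haemoglobin scavenger receptor of resident macrophages, fell most among the macrophage genes: its signals were 57.1, 5.4, 21.4, 60.3 and 53.5 in the transgenic livers, against 366, 1011, 1273 and 821 in the wild-type livers (log2 difference -4.01 ± 0.46, adjusted p = 1.47e-07). Clec4f, the lectin most specific for Kupffer cells in mice, gave 1223, 977.5, 1853, 329.7 and 3491 in the transgenic livers, against 1191, 2687, 2430.4 and 2613.5 in the wild-type livers (log2 difference -0.80 ± 0.66, adjusted p = 0.422). The Clec4f signals of the transgenic livers spanned more than the whole wild-type range. Timd4 (-1.18 ± 0.44), Vsig4 (0.57 ± 0.49) and Adgre1 (0.36 ± 0.25) did not pass. The members that rose were Cd68 (1.36 ± 0.37), a lysosomal protein of all macrophages, and the complement gene C1qa (1.07 ± 0.37). C1qc and C1qb, its partner chains, differed by 0.96 and 0.92 and did not pass. C1qa (wild-type liver 1, adjusted p = 0.158) lost its call without the liver named.

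**Figure D3:**
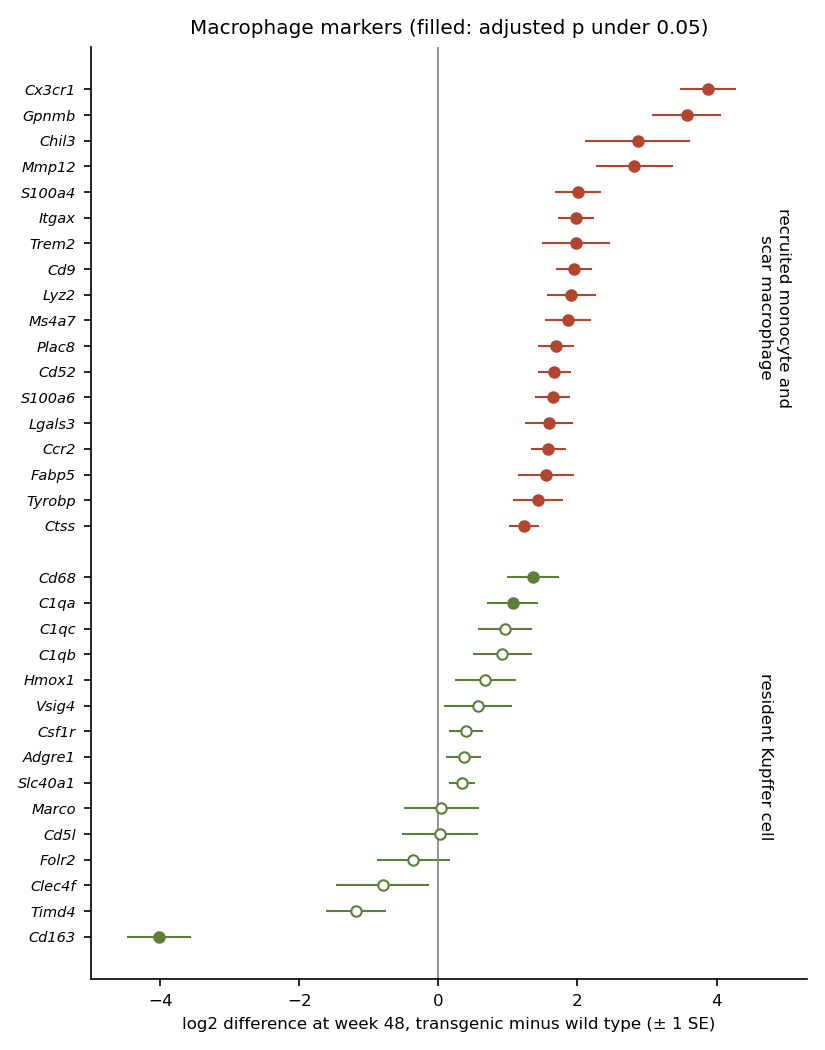
Differences between transgenic and wild-type liver at week 48 for the markers of recruited monocytes and scar-associated macrophages (upper block) and of resident Kupffer cells (lower block). The lists were chosen with earlier results of these data known. Points are log2 differences, transgenic minus wild type, and bars are ± 1 moderated standard error; filled points passed the test, and all 18 of the upper block lie right of 0.

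Genes of other immune cells were higher where they passed, apart from Xbp1. Of 11 genes of MHC class II presentation 6 rose and 0 fell, with 1.77 for H2-Eb1, 1.29 for H2-Aa, 1.84 for Cd74 and 1.34 for H2-Ab1. Of 13 markers of T and NK cells 5 rose and 0 fell. Gzmb, the granzyme of cytotoxic cells, gave 108, 109.6, 87.3, 64.2 and 222 in the transgenic livers, against 16.4, 4.5, 5.0 and 19.3 in the wild-type livers (log2 difference 2.24 ± 0.45, adjusted p = 0.000472). Klrd1, Cd3g and Cd3d rose by 1.55, 1.18 and 1.53, while Cd3e (0.62 ± 0.47) and Cd8a (-0.16 ± 0.22) did not pass. Of 15 B and plasma cell genes 6 rose and 1 fell, and the rises numbered 3 without the muscle-bearing livers. Igha, the heavy chain of IgA, gave 9986, 5779.9, 3302, 5179 and 7705.5 in the transgenic livers, against 326.5, 1229.5, 532.5 and 861 in the wild-type livers (log2 difference 3.15 ± 0.34, adjusted p = 6.94e-08). Iglv1, a lambda light chain, Prdm1, the regulator of plasma cells, and Jchain, which joins IgA into dimers, differed by 2.37, 0.90 and 1.88. Xbp1, which plasma cells and hepatocytes both use, was the fall (-0.38 ± 0.11), whereas Ms4a1 (0.98 ± 0.43) and Cd79a (0.91 ± 0.53) of B cells did not pass. Cd3d (wild-type liver 3, adjusted p = 0.0507) lost its call without the liver named. Cd3d and Jchain (without the muscle-bearing livers) and Xbp1 (several settings, with the highest adjusted p, 0.145, without the muscle-bearing livers) lost their calls under other settings.

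Of 11 neutrophil and mast cell genes 4 rose and 0 fell. Camp, the cathelicidin of neutrophil granules, gave 143, 166, 129, 138 and 1190.1 in the transgenic livers, against 9.2, 15.7, 16.7 and 15.9 in the wild-type livers (log2 difference 2.98 ± 0.96, adjusted p = 0.0248). The groups did not overlap, but transgenic liver 5 stood far above the other 4, and without it the call ended (adjusted p = 0.087). Ngp, another granule gene, behaved alike (2.42 ± 0.77, and adjusted p = 0.0837 without transgenic liver 5). Csf3r and Ltf differed by 1.62 and 1.83, and S100a8 and S100a9 by 2.06 ± 0.79 and 2.13 ± 0.82, which did not pass. Of 17 chemokines 6 rose and 0 fell. Cxcl14 gave 311, 273.5, 482, 267.5 and 1362 in the transgenic livers, against 26.2, 8.5, 5.2 and 150.2 in the wild-type livers (log2 difference 3.36 ± 0.63, adjusted p = 0.000191). Cx3cl1, the ligand of Cx3cr1, gave 267, 219.7, 199.8, 246 and 235 in the transgenic livers, against 19.1, 46.8, 39.4 and 29.3 in the wild-type livers (log2 difference 2.36 ± 0.23, adjusted p = 1.04e-08). Neither overlapped, although wild-type liver 4 stood high for Cxcl14. Ccl5, Cxcl16 and Cxcl12 rose by 1.79, 1.32 and 1.12, and the monocyte attractant Ccl2 (0.87 ± 0.52, adjusted p = 0.247) did not pass. Ltf (wild-type liver 4, adjusted p = 0.129) lost its call without the liver named. Camp (without both livers numbered 4 or without the muscle-bearing livers) lost its call under other settings too. Ltf (without both livers numbered 4, without the muscle-bearing livers or with an offset of 64) lost its call under other settings.

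Of 14 S100 proteins and annexins 6 rose and 0 fell, with 1.52 for Anxa5, 1.64 for S100a6, 1.54 for Anxa1 and 2.01 for S100a4. Of 18 interferon response genes 5 rose and 0 fell, with 1.24 for Oasl2, 1.26 for Ifit2, 1.03 for Oas1a and 1.29 for Gbp2 and a median of 0.35.

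Few genes of the endothelial lists passed, and those that did were higher. Aplnr, the apelin receptor of sprouting endothelium, was among the genes named by size, with 165, 396, 332, 885 and 305 in the transgenic livers, against 3.4, 5.1, 7.0 and 13.4 in the wild-type livers (log2 difference 4.03 ± 0.51, adjusted p = 8.26e-07). Its wild-type signals were all below the offset of 16, and with an offset of 64 the difference was 2.59, so its place among the rises depends on the offset. Cd34, which ordinary capillaries carry and healthy sinusoids mostly lack, gave 966, 628, 496, 1126 and 638 in the transgenic livers, against 46.6, 30.1, 29.8 and 191 in the wild-type livers (log2 difference 3.38 ± 0.36, adjusted p = 5.03e-08). Wild-type liver 4 stood above the other 3 for Cd34, and the groups did not overlap. Of 19 genes of sinusoidal endothelium and capillarisation 3 rose and 0 fell, near the 14.2% of all genes called higher: besides Cd34 these were Emcn (0.97 ± 0.30) and Cd200 (0.81 ± 0.26). Clec4g, a lectin of the sinusoid, gave 2245, 1915, 2039, 570.1 and 1698 in the transgenic livers, against 2917, 3782, 3220.3 and 3669 in the wild-type livers (log2 difference -1.13 ± 0.44, adjusted p = 0.069). The groups did not overlap for Clec4g, with transgenic liver 4 far below the other 4. Stab2 (-0.22 ± 0.23) and Lyve1 (0.56 ± 0.36) did not pass. Of 13 genes of the VEGF and angiopoietin families 2 rose, again near that share, Vegfc (1.14 ± 0.15) and Vegfb (0.81 ± 0.23), but 1 without the muscle-bearing livers, and Vegfa was at -0.34 ± 0.16 (adjusted p = 0.12). Cd200 (wild-type liver 2, adjusted p = 0.106), Vegfb (wild-type liver 2, adjusted p = 0.0595) and Emcn (wild-type liver 3, adjusted p = 0.069) lost their calls without the liver named. Cd200 (with the 9 arrays fitted alone), Vegfb (without the muscle-bearing livers) and Emcn (without both livers numbered 4 or without the muscle-bearing livers) lost their calls under other settings.

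Of 13 Notch genes 2 rose and 0 fell, near the 14.2% of all genes called higher, and the count of rises was 1 without both livers numbered 4 or without the muscle-bearing livers and 5 after median centring. Hey1, a Notch target of vessels, gave 162, 158, 167, 205 and 261 in the transgenic livers, against 14.1, 24.8, 21.6 and 116 in the wild-type livers (log2 difference 2.03 ± 0.33, adjusted p = 2.79e-05). Rbpj, the DNA-binding partner of Notch, differed by 0.38 ± 0.12. Of 8 mesothelial markers 2 rose: Wt1, a transcription factor of the mesothelium, gave 225, 205, 180.4, 193.5 and 167 in the transgenic livers, against 31.7, 49.3, 9.9 and 53 in the wild-type livers (log2 difference 2.11 ± 0.40, adjusted p = 0.000218), and Slpi rose by 1.86. Of 11 bile duct and progenitor markers 2 rose and 1 fell, near the 14.2% and 6.58% of all genes. The rises numbered 1 without the muscle-bearing livers. Cd24a rose by 1.79 and Krt18 by 0.61, whereas Krt19 (0.95 ± 0.49) and Sox9 (-0.27 ± 0.31) did not pass. Rbpj (wild-type liver 2, adjusted p = 0.0763) lost its call without the liver named. Krt18 (without the muscle-bearing livers) and Rbpj (without both livers numbered 4, without the muscle-bearing livers or under quantile normalisation) lost their calls under other settings.

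Genes of fetal liver and liver tumours were mostly higher where they passed, in livers that the labels set apart from the tumours. Of 20 genes 10 rose and 1 fell. Afp, the fetal serum protein alpha-fetoprotein, gave 222, 278.5, 552, 620.1 and 701 in the transgenic livers, against 55.1, 42.4, 56.1 and 62 in the wild-type livers (log2 difference 2.69 ± 0.38, adjusted p = 5.44e-06). Ly6d, a surface protein, gave 769.5, 1538, 819, 2375 and 2431 in the transgenic livers, against 90.6, 128, 83.8 and 126 in the wild-type livers (log2 difference 3.56 ± 0.62, adjusted p = 8.39e-05). Tff3, a trefoil peptide of mucous epithelia, gave 667, 4544, 1919.8, 2789 and 5321 in the transgenic livers, against 214, 85.2, 115 and 524.5 in the wild-type livers (log2 difference 3.61 ± 0.81, adjusted p = 0.00157). The groups did not overlap for these 3 genes, and within the transgenic livers Tff3 spread widely. Scd2, a desaturase of fetal liver, gave 1788, 2617.5, 2535, 5442 and 10001 in the transgenic livers, against 266, 345, 286 and 552 in the wild-type livers (log2 difference 3.33 ± 0.60, adjusted p = 0.000115). Cbr3, Robo1 and Spink1 rose by 1.45, 1.02 and 1.89. Gpc3 (0.67 ± 0.45, adjusted p = 0.316) and Igf2 (1.19 ± 0.44, adjusted p = 0.0527) did not pass, and Meg3 was the fall (-0.87 ± 0.31). Spink1 (transgenic liver 4, adjusted p = 0.0598), Robo1 (wild-type liver 1, adjusted p = 0.0502) and Meg3 (wild-type liver 3, adjusted p = 0.217) lost their calls without the liver named. Cbr3 (without the muscle-bearing livers), Robo1 (with averaged probe sets at 0.54) and Meg3 (several settings, with the highest adjusted p, 0.0864, without both livers numbered 4) lost their calls under other settings.

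Cell cycle genes that passed were higher, Mcm10 apart, with counts for mitosis and replication that depended on the livers numbered 4. Of 28 mitotic genes 8 rose and 0 fell, with 3 without both livers numbered 4 and 3 without the 3 livers with muscle transcripts. Cdk1, the kinase that starts mitosis, gave 159, 129.7, 184, 315 and 332 in the transgenic livers, against 87.3, 24.1, 58.1 and 11.8 in the wild-type livers (log2 difference 2.06 ± 0.47, adjusted p = 0.00178). Mki67, the proliferation antigen, gave 161, 98.8, 139.8, 201 and 256 in the transgenic livers, against 68.1, 12.6, 8.3 and 30.4 in the wild-type livers (log2 difference 2.15 ± 0.53, adjusted p = 0.0034). Both stood above all wild-type livers, and the signals were low. Cenpa and Nuf2 rose by 1.14 and 1.96, whereas Top2a (1.05 ± 0.43) and Plk1 (0.41 ± 0.54) did not pass. Of 34 replication genes 12 rose and 1 fell, with 7 higher without both livers numbered 4 and 5 without the 3 livers with muscle transcripts. Cdt1 and Rfc3 rose by 1.37 and 0.70. Mcm10, which helps to start replication forks, moved in the opposite direction, with 1404, 1757, 2703, 2424 and 1313 in the transgenic livers, against 6489.6, 4035, 7241 and 6389 in the wild-type livers (log2 difference -1.67 ± 0.30, adjusted p = 0.000107). Its groups did not overlap. Nuf2 (without both livers numbered 4, without the muscle-bearing livers or with an offset of 64 at 1.06) lost its call under the settings named.

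Of 14 G1 cyclins and kinases 5 rose and 0 fell, with 3 without both livers numbered 4 and 2 without the 3 livers with muscle transcripts. Ccnd1, cyclin D1, gave 2116, 2502, 1954, 2375 and 3583 in the transgenic livers, against 498, 914, 761 and 886 in the wild-type livers (log2 difference 1.70 ± 0.36, adjusted p = 0.000798). Ccnd2 and Rbl1 differed by 1.46 and 1.04, and the kinase Cdk4 by 0.43 ± 0.13. Inhibitors were among the rises too: of 17 CDK inhibitors and p53 targets 7 rose and 0 fell. Cdkn2c, an inhibitor of the cyclin D kinases, gave 927.5, 1021.5, 802, 1222 and 1108 in the transgenic livers, against 207.5, 177.5, 210.4 and 311.5 in the wild-type livers (log2 difference 2.10 ± 0.17, adjusted p = 6.03e-10). Phlda3, Cdkn2b and Plk2 rose by 1.51, 1.61 and 0.89. Cdkn1a, the p21 inhibitor, gave 542, 1063, 405, 464 and 958 in the transgenic livers, against 974, 439, 381.5 and 889 in the wild-type livers (log2 difference 0.04 ± 0.49, adjusted p = 0.967), with overlapping groups. Of 14 immediate early genes 3 rose, against 14.2% of all genes, and 1 lay above the wild-type livers without overlap, against 21.4%. The rises were Klf6 (1.78 ± 0.27), Ier3 (1.76 ± 0.39) and Jun (0.98 ± 0.35), and Myc (1.02 ± 0.54, adjusted p = 0.187) did not pass. Cdk4 (transgenic liver 4, adjusted p = 0.0632) and Jun (wild-type liver 1, adjusted p = 0.232) lost their calls without the liver named. Rbl1 (without the muscle-bearing livers), Cdk4 (without both livers numbered 4, without the muscle-bearing livers or under quantile normalisation) and Jun (under quantile normalisation, without the filter or with the 9 arrays fitted alone) lost their calls under other settings.

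Mitotic promoters are known for CCAAT boxes and for cell cycle homology regions, here read as TTTGAA. In RefSeq promoters of build GRCm38.p6, which run from 250 bases before a start to 50 after it, CCAAT on either strand occurred in 18 of the 23 mitotic genes with a promoter in the table (78.3%), against 41.1% of all genes. TTTGAA occurred in 18 of 23 (78.3%), against 20.2%. The 6 called genes with a promoter held CCAAT in 3 cases and the 17 others in 15. The letters describe the promoters and say nothing of which factor binds them. The list was made of known mitotic genes, so its shares describe the list and are no result of these livers. The promoter of Cdk1 shows both, with CCAAT and TTTGAA of either strand in capitals:
Cdk1, chr10:69352863-69353162, minus strand: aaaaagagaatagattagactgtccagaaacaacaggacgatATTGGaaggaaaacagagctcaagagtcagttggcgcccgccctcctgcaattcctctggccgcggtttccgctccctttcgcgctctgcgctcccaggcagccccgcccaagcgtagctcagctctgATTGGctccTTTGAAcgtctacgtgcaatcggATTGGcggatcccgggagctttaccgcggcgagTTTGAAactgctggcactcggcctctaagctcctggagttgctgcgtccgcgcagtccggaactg

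Wnt genes that passed were higher, and targets of beta-catenin in pericentral hepatocytes that passed were lower; a difference between the lists was not tested. Of 19 Wnt genes 5 rose and 0 fell, with a median of 0.09, and 14 did not pass. Frzb, a secreted Wnt antagonist, gave 473, 422, 597, 616 and 622.5 in the transgenic livers, against 121, 52.3, 72.7 and 94.7 in the wild-type livers (log2 difference 2.51 ± 0.30, adjusted p = 4.87e-07). The ligand Wnt4 gave 227, 274, 126, 248 and 159 in the transgenic livers, against 19.2, 26, 54.1 and 84.9 in the wild-type livers (log2 difference 1.92 ± 0.40, adjusted p = 0.000786). Both rose without overlap. Wnt5a, Dkk3 and Fzd1 differed by 1.49, 1.25 and 0.83. Of 19 pericentral targets 0 rose and 4 fell (median -0.42): -1.38 for Cyp1a2, -0.93 for Rhbg, -0.85 for Lect2 and -0.80 for Cyp2c29. Glul, glutamine synthetase, gave 18128.5, 11331, 11559, 5629.6 and 10353.5 in the transgenic livers, against 12625, 15386.5, 15874 and 13874 in the wild-type livers (log2 difference -0.43 ± 0.35, adjusted p = 0.408), and Lgr5 (-0.72 ± 0.35) did not pass. Of 19 retinoid genes 3 rose and 5 fell, and the falls numbered 2 without both livers numbered 4 or after median centring and 1 without the muscle-bearing livers. Aldh1a3, a retinaldehyde dehydrogenase, gave 161.5, 51.4, 124.5, 58.2 and 119 in the transgenic livers, against 2.0, 6.6, 4.9 and 3.9 in the wild-type livers (log2 difference 2.45 ± 0.44, adjusted p = 0.000121), the wild-type signals all being below the offset of 16. The receptor Rarb rose by 0.94, and Aldh1a1 and Rarres1 fell (-0.71 ± 0.12 and -1.52 ± 0.38). Rhbg (wild-type liver 1, adjusted p = 0.0675) and Lect2 (wild-type liver 2, adjusted p = 0.0681) lost their calls without the liver named. Lect2 (after median centring) and Rarres1 (without the muscle-bearing livers) lost their calls under other settings.

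Lipid storage genes changed in both directions. Of 22 genes of lipid droplets and fatty acid uptake 4 rose and 9 fell, and the falls numbered 5 under quantile normalisation or after median centring. Cidea, a lipid droplet protein of brown fat and fatty liver, gave 28.9, 175, 37.3, 262 and 9.3 in the transgenic livers, against 5045, 6189, 2314 and 2979 in the wild-type livers (log2 difference -5.59 ± 0.82, adjusted p = 8.43e-06). The groups were far apart. At week 20 the mean was 17.6 ± 13 in transgenic and 72.7 ± 59.8 in wild-type livers (SD, n = 5 each). The difference between the ages did not pass for Cidea (log2 -4.40 ± 1.13, adjusted p = 0.0834). Mogat1, an acyltransferase of triglyceride synthesis, gave 57.1, 61.6, 103, 45.3 and 80 in the transgenic livers, against 384, 411, 279 and 172.5 in the wild-type livers (log2 difference -1.91 ± 0.55, adjusted p = 0.0124). G0s2, an inhibitor of lipolysis, and Fitm2, which helps droplets form, fell (-1.43 ± 0.45 and -0.76 ± 0.18). Lpl, the lipoprotein lipase, which healthy adult hepatocytes hardly make, gave 12983, 16061, 10539, 17752 and 14190.1 in the transgenic livers, against 1583, 1263, 1814.5 and 4670.3 in the wild-type livers (log2 difference 2.78 ± 0.36, adjusted p = 1.07e-06). Plin3 and Fabp5 rose by 0.68 and 1.54. Fabp4, a fatty acid carrier of adipocytes and macrophages, gave 1927, 2812, 2107, 8286 and 3248 in the transgenic livers, against 735.5, 725.5, 983 and 2974 in the wild-type livers (log2 difference 1.48 ± 0.42, adjusted p = 0.011), and Lpl and Fabp4 are both among the adipocyte genes. Both were highest in liver 4 of either group, where Adipoq was highest too. Without both livers numbered 4 their differences were 3.10 (adjusted p = 6.56e-07) and 1.59 (adjusted p = 0.00374); what fat tissue adds to the signals of Fabp4 was not tested otherwise. Fabp5 (wild-type liver 2, adjusted p = 0.0508), Fabp4 (wild-type liver 2, adjusted p = 0.0511) and G0s2 (wild-type liver 3, adjusted p = 0.11) lost their calls without the liver named. Mogat1 (without the muscle-bearing livers) lost its call under that setting.

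Few genes of lipid synthesis passed. Of 20 cholesterol synthesis genes 0 passed in limma in either direction, 3 at an unadjusted p under 0.05, and the smallest p values belonged to Tm7sf2 (-0.60 ± 0.24), Pmvk (0.58 ± 0.27), Insig1 (-0.32 ± 0.15) and Ebp (-0.17 ± 0.12). Of 18 lipogenic genes 1 rose and 2 fell, against 14.2% and 6.58% of all genes. The rise was Scd2, and the falls were Dgat2 (-0.61 ± 0.15) and Mlxipl (-0.93 ± 0.27), the carbohydrate-sensing regulator. Fasn was at 0.26 ± 0.42 (adjusted p = 0.707). Of 14 elongases and desaturases 2 rose, near the 14.2% of all genes, Scd2 and Elovl2 (0.42 ± 0.12), but 1 without the muscle-bearing livers, and Elovl5 (0.36 ± 0.14) did not pass. Of 21 genes of fatty acid oxidation 1 rose and 5 fell, and the falls numbered 3 under quantile normalisation and 1 after median centring: Cpt2, Acaa2, Acaa1b and Acadm differed by -0.64, -0.35, -0.37 and -0.30. Acaa1b (wild-type liver 2, adjusted p = 0.0919), Acadm (wild-type liver 2, adjusted p = 0.14) and Mlxipl (wild-type liver 3, adjusted p = 0.121) lost their calls without the liver named. Acaa2 (after median centring), Cpt2 (with averaged probe sets at -0.29), Elovl2 (without the muscle-bearing livers), Mlxipl (with the 9 arrays fitted alone), Acadm (under quantile normalisation at -0.18 or after median centring) and Acaa1b (without the muscle-bearing livers, under quantile normalisation at -0.088 or after median centring) lost their calls under other settings.

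Bile acid genes changed in both directions, and lipoprotein genes other than Lpl fell where they passed. Of 23 bile acid genes 3 rose and 7 fell, and the falls numbered 4 without both livers numbered 4 or under quantile normalisation and 2 without the muscle-bearing livers. Slco1a1, an uptake transporter of male mouse liver, gave 1115, 689, 3039, 993 and 1981 in the transgenic livers, against 9149, 5843, 8940.0 and 7564 in the wild-type livers (log2 difference -2.50 ± 0.62, adjusted p = 0.00351). Slco1b2 and Slc10a1, the other uptake carriers, differed by -0.74 and -0.91, and the synthetic enzymes Cyp8b1 and Cyp7b1 by -1.65 and -1.38. Slco1a4, a related carrier, moved against Slco1a1, with 3721.5, 3318, 1543, 1874 and 977 in the transgenic livers, against 885.5, 690.4, 631 and 577 in the wild-type livers (log2 difference 1.55 ± 0.33, adjusted p = 0.000813). The sterol exporters Abcg5 and Abcg8 differed by 1.19 ± 0.23 and 0.74 ± 0.26. Cyp7a1, the rate-limiting enzyme of bile acid synthesis, did not pass (0.67 ± 0.37). Of 19 apolipoprotein and lipoprotein genes 1 rose, Lpl, and 9 fell by small amounts, among them Mttp (-0.52 ± 0.12), Apof (-0.33 ± 0.08) and Apoh (-0.34 ± 0.09). The count of falls became 4 without both livers numbered 4, 2 without the muscle-bearing livers or under quantile normalisation and 1 after median centring. Abcg8 (transgenic liver 2, adjusted p = 0.131), Cyp7b1 (transgenic liver 4, adjusted p = 0.0807) and Cyp8b1 (transgenic liver 5, adjusted p = 0.0669) lost their calls without the liver named. Cyp8b1 and Slco1a1 (without the muscle-bearing livers), Slc10a1 (without both livers numbered 4), Apoh (after median centring or with averaged probe sets at -0.17), Apof (without the muscle-bearing livers, under quantile normalisation at -0.15 or after median centring), Cyp7b1 (without both livers numbered 4, without the muscle-bearing livers at -0.85 or under quantile normalisation) and Abcg8 (several settings, with the highest adjusted p, 0.081, without both livers numbered 4) lost their calls under other settings.

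Drug-metabolising enzymes fell where they passed. Of 21 genes 0 rose and 11 fell, with a median of -0.58, and the falls were 7 without the muscle-bearing livers. Cyp2c37 gave 14982, 5466, 3481, 2919.9 and 1273 in the transgenic livers, against 18300.3, 23637, 21798 and 16555 in the wild-type livers (log2 difference -2.30 ± 0.61, adjusted p = 0.00637). Transgenic liver 1 was close to the wild-type livers and the other 4 lay far below. Cyp2c54, Cyp1a2, Cyp2d26 and Ugt2b1 differed by -1.78, -1.38, -0.54 and -0.67. Of 21 transcription factors of hepatocytes 0 rose and 4 fell, and the falls numbered 2 without both livers numbered 4 or without the muscle-bearing livers. Onecut1 (HNF6) gave 209, 351, 87.6, 247 and 161 in the transgenic livers, against 913, 496, 1536 and 1721 in the wild-type livers (log2 difference -2.35 ± 0.51, adjusted p = 0.00115). Creb3l3 and Hnf4a, the central regulator of hepatocyte identity, differed by -0.80 ± 0.11 and -0.53 ± 0.14, and Nr1h3 by -0.40 ± 0.12. Foxa2 (-0.72 ± 0.28) and Cebpa (-0.36 ± 0.19) did not pass. Ugt2b1 (without the muscle-bearing livers), Hnf4a (without both livers numbered 4, without the muscle-bearing livers or with averaged probe sets at -0.34) and Nr1h3 (without both livers numbered 4, without the muscle-bearing livers or after median centring) lost their calls under the settings named.

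Genes that adult male mice express more strongly in liver, under pulses of growth hormone, fell where they passed. Of 13 male-biased genes 0 rose and 7 fell, with 4 without both livers numbered 4 and 3 without the 3 livers with muscle transcripts. Hsd3b5, a steroid dehydrogenase, was among the largest falls, with 68.9, 266, 914, 81.6 and 723 in the transgenic livers, against 16489, 9939, 14607 and 17380.0 in the wild-type livers (log2 difference -5.69 ± 1.23, adjusted p = 0.00101). Mup10, a major urinary protein whose family shares near-identical sequences, gave 575, 1076, 2134, 404 and 1008 in the transgenic livers, against 10447, 8509.9, 15167 and 8516 in the wild-type livers (log2 difference -3.52 ± 0.63, adjusted p = 0.000114). Cyp2d9, Susd4 and Ugt2b38 differed by -0.91, -2.21 and -2.34. Of 7 female-biased genes 2 rose and 0 fell, and the rises numbered 1 without both livers numbered 4 or without the muscle-bearing livers. Abcd2, a peroxisomal transporter, gave 474, 361, 634, 572 and 492 in the transgenic livers, against 137, 104, 34.9 and 96.9 in the wild-type livers (log2 difference 2.34 ± 0.54, adjusted p = 0.00187), and Cyp17a1 differed by 1.52 ± 0.44. Of 4 genes of the sex chromosomes 1 rose, Uty, by 0.36, and Eif2s3y did not pass (-0.22 ± 0.16), with mean signals of 1849 ± 303 and 2153 ± 320.5 for Eif2s3y in transgenic and wild-type livers (SD, n = 5 and 4). Ugt2b38 (transgenic liver 1, adjusted p = 0.0519), Cyp17a1 (wild-type liver 4, adjusted p = 0.0659) and Uty (wild-type liver 4, adjusted p = 0.109) lost their calls without the liver named. Susd4 (without both livers numbered 4), Ugt2b38 (without the muscle-bearing livers), Cyp17a1 (without both livers numbered 4 at 0.98 or without the muscle-bearing livers) and Uty (several settings, with the highest adjusted p, 0.649, with averaged probe sets at -0.12) lost their calls under other settings.

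Genes of protein folding and disposal in the endoplasmic reticulum fell where they passed. Cells that secrete much protein, as hepatocytes do, keep up a set of chaperones and of enzymes that retrotranslocate misfolded proteins for degradation (ERAD), under the unfolded protein response. Of 22 genes 0 rose and 14 fell, against 14.2% and 6.58% of all genes. Their median was -0.45, against 0.0355 for all genes. The count of falls was 9 without both livers numbered 4, 5 without the 3 livers with muscle transcripts, 12 under quantile normalisation and 10 after median centring. After median centring 1 member was called higher. Syvn1, the ERAD ubiquitin ligase HRD1, gave 1481, 2586, 2371, 1963 and 2993.5 in the transgenic livers, against 5834, 5712, 8593 and 5972 in the wild-type livers (log2 difference -1.53 ± 0.21, adjusted p = 2.62e-06). Sel1l, its partner, gave 1765, 3116, 3056.5, 2039 and 3455 in the transgenic livers, against 6637, 4325, 5325 and 4958 in the wild-type livers (log2 difference -1.01 ± 0.19, adjusted p = 0.000178). Derl3, which forms part of the same channel, gave 236, 207, 216, 80.3 and 301.5 in the transgenic livers, against 805, 939.7, 805 and 660.5 in the wild-type livers (log2 difference -1.96 ± 0.38, adjusted p = 0.000273). In each of the 3 genes every transgenic liver lay below every wild-type liver.

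The chaperone Hspa5 (BiP) gave 13110.0, 18728, 16980.2, 15378 and 22730.3 in the transgenic livers, against 26549, 30872, 29513 and 29415 in the wild-type livers (log2 difference -0.76 ± 0.15, adjusted p = 0.000418). Creld2, a secreted gene of the same response, gave 1185, 3196, 2685, 2049 and 4581.5 in the transgenic livers, against 9328, 7435, 9594 and 8587.5 in the wild-type livers (log2 difference -1.80 ± 0.38, adjusted p = 0.000844). Herpud1, an ERAD scaffold, gave 8859, 10538, 8906, 6674 and 11461 in the transgenic livers, against 16580.0, 19468, 15523 and 21321 in the wild-type livers (log2 difference -0.98 ± 0.24, adjusted p = 0.00268). These were again apart, and transgenic liver 1 was the lowest for Syvn1, Sel1l, Hspa5 and Creld2. The other falls were -0.57 for Dnajc3, -0.43 for Edem1, -0.44 for Calr, -0.38 for Xbp1, -0.40 for Hsp90b1, -0.78 for Dnajb9, -0.58 for Pdia4 and -0.99 for Sdf2l1. Genes of the stress-induced branch through Atf4 did not join them: Ddit3 (-0.21 ± 0.22) and Trib3 (0.80 ± 0.31) did not pass. Xbp1, whose spliced protein drives ERAD genes, and Creb3l3, a liver factor of the same compartment, both fell. Splicing of Xbp1 and a link between these falls and the others were not tested. The call of Xbp1 ended under several settings, as given with the B cell genes. Dnajb9 (wild-type liver 2, adjusted p = 0.0751), Pdia4 (wild-type liver 3, adjusted p = 0.109), Hsp90b1 (wild-type liver 4, adjusted p = 0.0689) and Sdf2l1 (wild-type liver 4, adjusted p = 0.107) lost their calls without the liver named. Dnajc3 (without the muscle-bearing livers at -0.38), Edem1 and Herpud1 (without the muscle-bearing livers), Calr (without the muscle-bearing livers or after median centring), Sdf2l1 (without both livers numbered 4 or without the muscle-bearing livers at -0.63), Dnajb9 (without both livers numbered 4, without the muscle-bearing livers at -0.47 or after median centring), Pdia4 (without both livers numbered 4, without the muscle-bearing livers at -0.32 or with the 9 arrays fitted alone) and Hsp90b1 (several settings, with the highest adjusted p, 0.323, under quantile normalisation at -0.20) lost their calls under other settings.

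The week 20 livers show where the wild-type level stood. For Syvn1 the mean at week 48 was 2279 ± 581 in transgenic and 6527 ± 1381 in wild-type livers (SD, n = 5 and 4), and at week 20 it was 2216 ± 619 in transgenic and 2642 ± 383 in wild-type livers (SD, n = 5 each). The difference between the genotypes was larger at week 48 (log2 difference of differences -1.25 ± 0.29, adjusted p = 0.0492). For Creld2 the week 20 means were 1636 ± 913 in transgenic and 3354 ± 1513 in wild-type livers, against 2739 ± 1275 and 8736 ± 966 at week 48, and its difference between the ages did not pass (log2 -0.72 ± 0.52, adjusted p = 0.598). The call of Syvn1 in this test ended under 22 of 31 alternatives, among them the loss of wild-type liver 3 of week 48 (adjusted p = 0.135). In both genes the wild-type livers of week 48 had the higher mean of the 2 ages.

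Some promoters of this list hold a known element. The endoplasmic reticulum stress element is CCAAT followed, after 9 bases, by CCACG, and it was searched on both strands of the RefSeq promoters (GRCm38.p6, 250 bases before to 50 after the start); the search was chosen after the values were seen. It occurred in 8 of the 21 genes of the list with a promoter in the table (38.1%), against 0.137% of all 27025 genes. Of the 14 genes that fell 7 held it, and of the 7 others 1 did (Pdia6). A match is a description of the letters and no evidence of binding. The list was made of genes of endoplasmic reticulum stress, so its share describes the list and is no result of these livers. The promoters of the 4 such genes of smallest p are printed 5′ to 3′ as read from the gene's strand, with the CCAAT and CCACG of the element, or their reverse complements, in capitals:
Syvn1, chr19:6046326-6046625, plus strand: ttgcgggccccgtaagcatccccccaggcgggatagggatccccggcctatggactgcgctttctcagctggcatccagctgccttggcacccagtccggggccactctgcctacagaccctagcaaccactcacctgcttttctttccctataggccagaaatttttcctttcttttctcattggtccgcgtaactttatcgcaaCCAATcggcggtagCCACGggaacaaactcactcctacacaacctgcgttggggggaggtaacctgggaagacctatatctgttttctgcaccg
Derl3, chr10:75893148-75893447, plus strand: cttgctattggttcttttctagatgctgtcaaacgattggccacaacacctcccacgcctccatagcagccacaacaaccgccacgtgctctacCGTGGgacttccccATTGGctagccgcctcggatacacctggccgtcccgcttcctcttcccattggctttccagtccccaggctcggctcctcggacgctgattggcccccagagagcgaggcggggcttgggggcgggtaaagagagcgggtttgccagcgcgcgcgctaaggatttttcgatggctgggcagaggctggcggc
Hspa5, chr2:34771840-34772139, plus strand: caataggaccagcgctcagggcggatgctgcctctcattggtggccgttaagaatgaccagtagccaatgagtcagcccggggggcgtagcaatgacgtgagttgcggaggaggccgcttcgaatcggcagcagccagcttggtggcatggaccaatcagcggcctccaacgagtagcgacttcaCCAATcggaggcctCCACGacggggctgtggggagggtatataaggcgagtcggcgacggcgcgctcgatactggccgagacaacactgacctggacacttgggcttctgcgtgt
Creld2, chr15:88819396-88819695, plus strand: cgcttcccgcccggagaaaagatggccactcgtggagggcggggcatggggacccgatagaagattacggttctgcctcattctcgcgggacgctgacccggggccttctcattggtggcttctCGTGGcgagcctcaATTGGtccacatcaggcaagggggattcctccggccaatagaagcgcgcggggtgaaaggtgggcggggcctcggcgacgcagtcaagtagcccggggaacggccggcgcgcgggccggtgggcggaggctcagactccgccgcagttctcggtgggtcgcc

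In central metabolism the lists differed in how many members passed, beside 14.2% of all genes called higher and 6.58% called lower. Of 20 genes of glycolysis and gluconeogenesis 4 rose and 0 fell: these were Pkm (1.43 ± 0.30), Hk1 (0.96 ± 0.16), Hk2 (1.23 ± 0.36) and Pfkp (1.14 ± 0.18), forms that hepatocytes use little, while Pklr (-0.58 ± 0.35) and Pck1 (-0.23 ± 0.20) did not pass. Of 20 genes of the urea cycle and of amino acid breakdown 1 rose, Got1 (0.82 ± 0.29), and 5 fell slightly: -0.37 for Otc, -0.40 for Tdo2, -0.33 for Hpd and -0.30 for Fah and a further member. The falls numbered 3 without both livers numbered 4, 2 without the muscle-bearing livers or under quantile normalisation and 0 after median centring. Of 28 respiratory chain genes 1 fell (Sdha, -0.23 ± 0.08), and Uqcrc1 and Ndufa9, which did not pass, were at -0.29 and -0.19. Of 12 ribosomal proteins 2 rose, Rps19 (0.36 ± 0.10) and Rps6 (0.43 ± 0.13), and the rises numbered 0 without the muscle-bearing livers and 10 under quantile normalisation. Got1 (transgenic liver 4, adjusted p = 0.0967), Hk2 (wild-type liver 1, adjusted p = 0.0642), Sdha (wild-type liver 1, adjusted p = 0.162), Hpd (wild-type liver 2, adjusted p = 0.0632), Rps6 (wild-type liver 2, adjusted p = 0.114) and Fah (wild-type liver 3, adjusted p = 0.118) lost their calls without the liver named. Hk2 (with the 9 arrays fitted alone), Otc and Tdo2 (after median centring), Rps19 (without the muscle-bearing livers), Rps6 (without the muscle-bearing livers or with averaged probe sets at 0.035), Hpd (without the muscle-bearing livers, under quantile normalisation at -0.081 or after median centring), Fah (several settings, with the highest adjusted p, 0.359, under quantile normalisation at -0.13), Got1 (several settings, with the highest adjusted p, 0.189, without the muscle-bearing livers) and Sdha (several settings, with the highest adjusted p, 0.356, after median centring at -0.15) lost their calls under other settings.

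Of 23 genes of the NRF2 and glutathione defence 2 rose and 3 fell, against 14.2% and 6.58% of all genes. The falls were 1 under quantile normalisation and 0 after median centring. Gpx3, the glutathione peroxidase of plasma, gave 2518, 2689, 1971, 4060.4 and 1880.1 in the transgenic livers, against 295.5, 253, 322 and 802 in the wild-type livers (log2 difference 2.70 ± 0.35, adjusted p = 1.22e-06). Gstm3, a glutathione transferase, gave 19509.9, 14788, 10379.6, 19886 and 18627 in the transgenic livers, against 4659, 4766, 3481 and 2693 in the wild-type livers (log2 difference 2.09 ± 0.35, adjusted p = 5.11e-05). Neither overlapped. Cat and Gpx1 differed by -0.35 ± 0.09 and -0.36 ± 0.09, and the NRF2 target Nqo1 (0.38 ± 0.18) did not pass. Of 17 genes of iron handling 2 rose and 1 fell, near the shares of all genes, with Smad7 at 0.86, Id1 at 1.14 and the zinc and iron carrier Slc39a14 at -0.76. Gpx1 (after median centring) and Cat (under quantile normalisation at -0.13 or after median centring) lost their calls under the settings named.

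Secreted liver proteins that passed were mostly lower, beside 14.2% of all genes called higher and 6.58% called lower. In these lists 18 acute phase and 21 complement and coagulation genes did not pass. Of 25 acute phase genes 1 rose and 6 fell: Saa4 (-1.13 ± 0.20), Fgg (-0.34 ± 0.10) and Hpx (-0.32 ± 0.11) fell and Cd14 (1.16 ± 0.37) rose. The falls in the acute phase list became 2 without both livers numbered 4 and 1 without the muscle-bearing livers, under quantile normalisation or after median centring, and its median was -0.20, against 0.0293 under quantile normalisation. Of 29 genes of complement and coagulation 1 rose and 7 fell, and the falls numbered 3 without both livers numbered 4, under quantile normalisation or after median centring and 1 without the muscle-bearing livers: F3, the tissue factor that starts clotting, rose by 1.07, and C8g, Masp2 and F2 differed by -0.60, -0.62 and -0.30. Cd14 (wild-type liver 1, adjusted p = 0.0745), Fgg (wild-type liver 2, adjusted p = 0.0618) and Hpx (wild-type liver 2, adjusted p = 0.104) lost their calls without the liver named. Masp2 (without both livers numbered 4 or without the muscle-bearing livers at -0.32), F2 (without the muscle-bearing livers, under quantile normalisation at -0.078 or after median centring), Fgg (without the muscle-bearing livers, under quantile normalisation at -0.10 or after median centring) and Hpx (several settings, with the highest adjusted p, 0.227, after median centring) lost their calls under other settings.

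Of 16 genes of the insulin-like growth factor axis 3 rose and 3 fell, against 14.2% and 6.58% of all genes. The rises numbered 5 under quantile normalisation. Igfbp7 and Htra1, which cuts IGF binding proteins, differed by 1.58 and 3.03. Igfals, which holds circulating IGF in its large complex, and the growth hormone receptor Ghr fell (-1.12 ± 0.15 and -0.62 ± 0.13), while Igf1 (-0.29 ± 0.11) did not pass. Of 16 genes of the HGF and EGF families 4 rose and 1 fell: Nrg1, Hbegf and Hgf differed by 1.87, 0.76 and 1.03, and Hgfac, the activator of HGF, by -0.70. Thyroid hormone genes changed in opposite directions: Serpina7, the thyroxine-binding globulin, gave 16235.5, 12706, 13339, 10597 and 15142 in the transgenic livers, against 3819.8, 4391, 4758 and 3903 in the wild-type livers (log2 difference 1.68 ± 0.33, adjusted p = 0.000313), and Dio1, the deiodinase of liver, gave 361, 1887, 1979.5, 1481 and 3090.0 in the transgenic livers, against 6389, 8429.7, 5724 and 8796.5 in the wild-type livers (log2 difference -2.31 ± 0.50, adjusted p = 0.000977). Neither overlapped, and of the 8 genes of that list 1 rose and 2 fell, the third being Ttr (-0.33 ± 0.11), and the falls numbered 1 without both livers numbered 4, without the muscle-bearing livers, under quantile normalisation or after median centring. Ttr (wild-type liver 2, adjusted p = 0.112), Hbegf (wild-type liver 3, adjusted p = 0.0957) and Hgf (wild-type liver 3, adjusted p = 0.0791) lost their calls without the liver named. Hgf (without both livers numbered 4 or without the muscle-bearing livers) and Ttr (several settings, with the highest adjusted p, 0.344, under quantile normalisation at -0.057) lost their calls under other settings.

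Of 16 circadian clock genes 0 passed in limma and 2 had an unadjusted p under 0.05. The smallest p values were those of Hlf (-0.87 ± 0.32) and Per2 (-1.01 ± 0.38), and quantile normalisation called 2 lower. Of the 3 red cell genes tested 2 fell, Car1 (-1.02 ± 0.24) and Alas2 (-0.83 ± 0.29), but 1 without both livers numbered 4, without the muscle-bearing livers or after median centring. Alas2 (transgenic liver 1, adjusted p = 0.128) lost its call without the liver named. Alas2 (without both livers numbered 4, without the muscle-bearing livers or after median centring) lost its call under other settings.

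**Figure D4:**
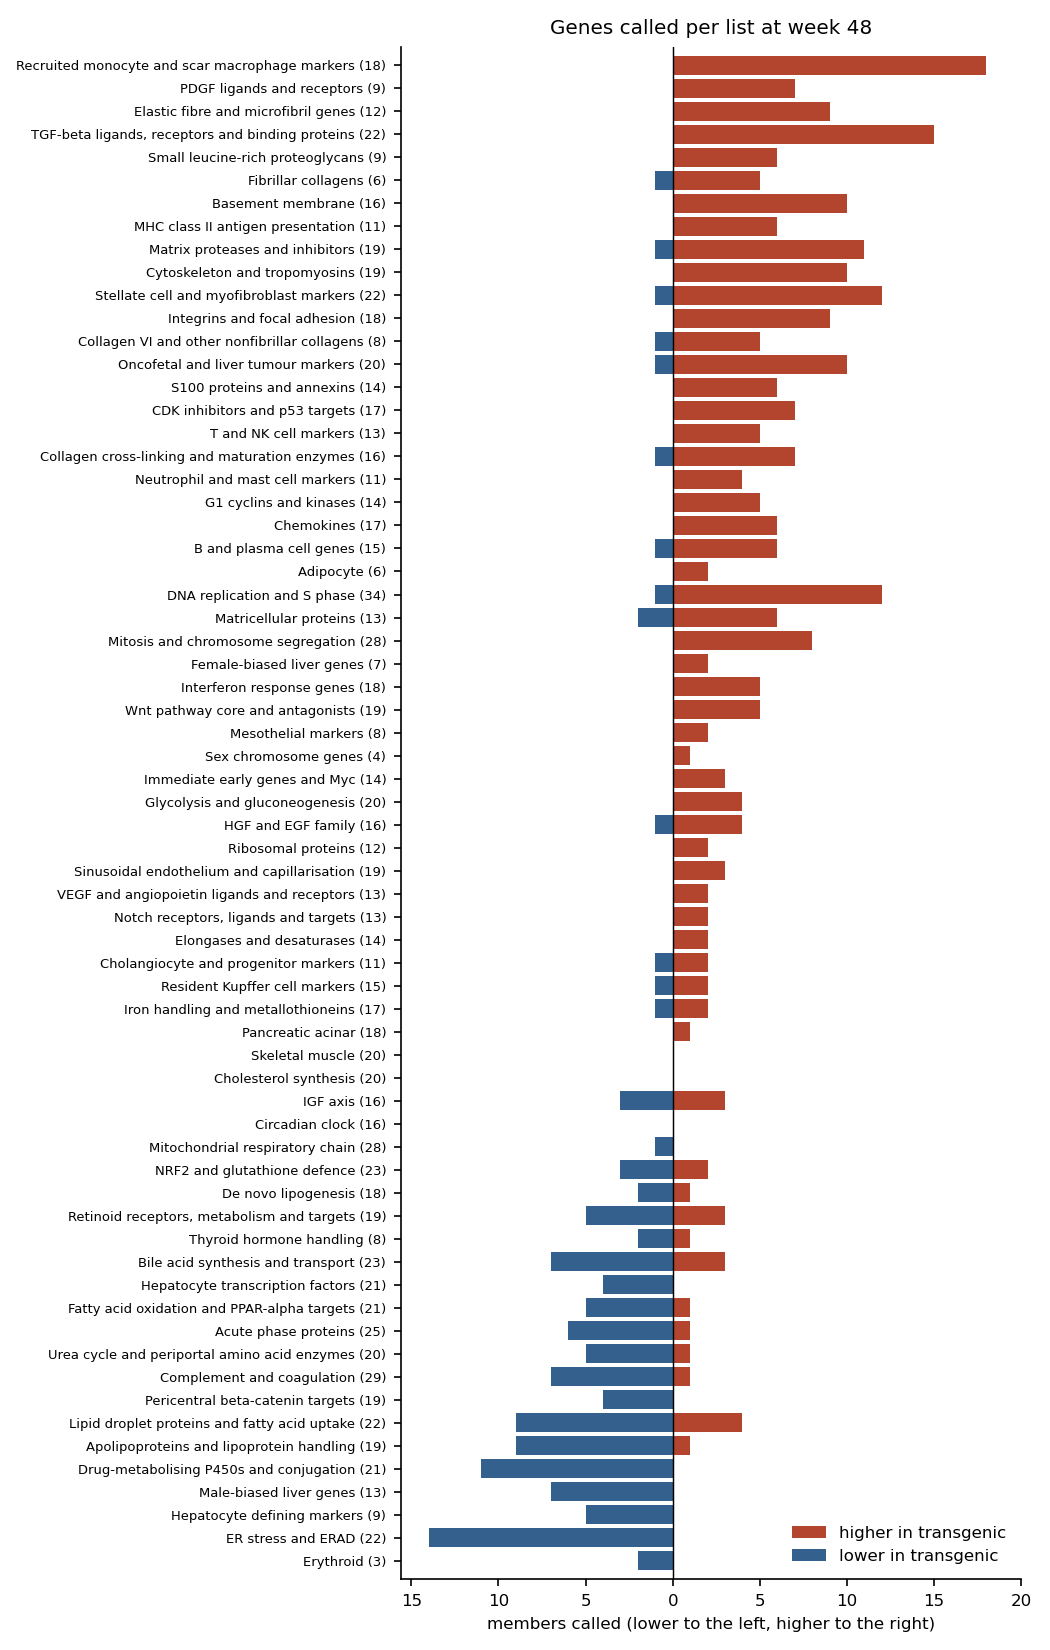
Members of the gene lists called in the comparison of transgenic with wild-type liver at week 48. The lists were chosen with earlier results of these data known. Bars give the number of members called higher (right of 0) and lower (left of 0), and the figure in brackets after each name is the number tested; all 18 monocyte and scar macrophage genes were higher, and 14 of 22 genes of the endoplasmic reticulum list were lower.

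Among the 12 largest falls several genes belong to no list. Serpina4-ps1, a serpin pseudogene transcribed in liver, gave 42.1, 1035, 580.5, 286 and 648 in the transgenic livers, against 5654, 4719.8, 17228 and 12093.5 in the wild-type livers (log2 difference -4.53 ± 0.84, adjusted p = 0.000174). Dct, dopachrome tautomerase, an enzyme known from pigment cells, gave 25.1, 36.3, 136, 60.4 and 102 in the transgenic livers, against 1074, 1163.5, 1535 and 973 in the wild-type livers (log2 difference -3.92 ± 0.40, adjusted p = 2.5e-08). Slc22a7, the organic anion transporter OAT2, gave 307, 224, 439, 159 and 249 in the transgenic livers, against 3431, 2588, 3979 and 4073 in the wild-type livers (log2 difference -3.65 ± 0.56, adjusted p = 1.46e-05). In these the groups were separated by wide gaps, though absence of overlap was a condition of the choice. Obp2a, an odorant-binding protein, gave 34.3, 2.9, 36.5, 19.5 and 44.2 in the transgenic livers, against 218, 222, 729.9 and 427 in the wild-type livers (log2 difference -3.19 ± 0.49, adjusted p = 1.58e-05). Snhg11, a long noncoding RNA, gave 52, 59, 6.9, 18.6 and 2.3 in the transgenic livers, against 157, 333, 453 and 125 in the wild-type livers (log2 difference -2.75 ± 0.51, adjusted p = 0.000164). The water channel Aqp4 gave 57.4, 29.8, 31.3, 97.5 and 10.3 in the transgenic livers, against 285, 495, 415 and 121.5 in the wild-type livers (log2 difference -2.51 ± 0.57, adjusted p = 0.00156). The signals of Obp2a, Snhg11 and Aqp4 were low in transgenic liver, and with an offset of 64 the differences were -2.22, -1.78 and -1.78.

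The difference between the ages was called for 36 of 13099 genes (0.275%), against 1723 at an unadjusted p under 0.05, so most differences at week 48 were not shown to differ from those of week 20. The count depended on single livers: it was 15, 16 or 13 without wild-type liver 2, 3 or 4, it was 23, 16, 22 or 16 without transgenic liver 1, 3, 4 or 5, it ranged from 12 to 66 with 1 liver of week 20 left out (34 without transgenic liver 5 of week 20, which held pancreatic transcripts), and it was 8 without both livers numbered 4 and 5 without the 3 livers with muscle transcripts. H2az2, a histone variant, had mean signals of 3528 ± 153 in transgenic and 2289.7 ± 167 in wild-type livers at week 48, and 2872 ± 203 and 3282 ± 372 at week 20 (SD, n = 5, 4, 5 and 5; difference between ages 0.81 ± 0.13, adjusted p = 0.00488). Rpa3, a subunit of the single-strand binding complex of replication, had 876 ± 95.4 in transgenic and 494 ± 40.8 in wild-type livers at week 48, and 602 ± 89.4 and 704 ± 69 at week 20 (1.03 ± 0.17, adjusted p = 0.00488). Both were higher in transgenic liver at week 48 and slightly lower in it at week 20. Zwint, a kinetochore protein, had 2408 ± 247 in transgenic and 1972 ± 242 in wild-type livers at week 48, and 1746 ± 185 and 2577 ± 349.9 at week 20 (0.84 ± 0.15, adjusted p = 0.00824). Eif3b, a translation factor, had 1524 ± 113 in transgenic and 2222 ± 229 in wild-type livers at week 48, and 2459 ± 192 and 2108 ± 187 at week 20 (-0.76 ± 0.14, adjusted p = 0.00824). The week 20 arrays differed in RNA quality as well: the 3' to 5' ratio of Actb was 1.30 to 1.57 in transgenic and 1.39 to 1.71 in wild-type livers of week 48, and 1.62 to 1.74 and 1.81 to 2.16 at week 20, with every wild-type ratio of week 20 above every one of week 48; its part in the differences between ages was not tested. Zwint lost this call with averaged probe sets (0.23, adjusted p = 0.572) and without the muscle-bearing livers (adjusted p = 0.074). Eif3b lost this call after median centring (adjusted p = 0.0731), without both livers numbered 4 (adjusted p = 0.0541) and without the muscle-bearing livers (adjusted p = 0.111). Rpa3 lost this call without the muscle-bearing livers (adjusted p = 0.0863). H2az2 kept it under all 31 alternatives.

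Among the other genes with a difference between the ages were genes of the matrix and of adhesion. Tns1, a focal adhesion protein, had 1145 ± 288 in transgenic and 991 ± 252 in wild-type livers at week 48, and 3627 ± 742 and 805 ± 378 at week 20 (-2.03 ± 0.35, adjusted p = 0.00794), so that its excess in transgenic liver was seen at week 20 and did not pass at week 48 (0.21 ± 0.25). Crispld2 had 650.3 ± 216 in transgenic and 41.8 ± 46.6 in wild-type livers at week 48, and 1978 ± 539.8 and 13.5 ± 2.57 at week 20 (-2.29 ± 0.44, adjusted p = 0.0139). Cdkn2c had 1016 ± 162 in transgenic and 227 ± 58.4 in wild-type livers at week 48, and 1130.1 ± 119 and 604 ± 103 at week 20 (1.21 ± 0.24, adjusted p = 0.0173), with the lowest level in wild-type livers of week 48. Serpina7 had 13604 ± 2191 in transgenic and 4218 ± 439 in wild-type livers at week 48, and 3179 ± 1755 and 4539.8 ± 2434 at week 20 (2.18 ± 0.45, adjusted p = 0.0243). Errors here are SD of the signals and standard errors of the differences. Other members of the lists that passed this test were Rfc3, H2az1 and Syvn1. Crispld2 lost this call with averaged probe sets (-1.29, adjusted p = 0.11). Cdkn2c lost this call without wild-type liver 2 of week 48 (adjusted p = 0.0571). Serpina7 lost this call without transgenic liver 3 of week 20 (adjusted p = 0.0654, the highest of 7 such losses), with the arrays of the 4 groups fitted alone (adjusted p = 0.0586), without both livers numbered 4 (adjusted p = 0.0651) and without the muscle-bearing livers (adjusted p = 0.115). Rfc3 lost this call without wild-type liver 3 of week 48 (adjusted p = 0.0938, the highest of 14 such losses), without the filter (adjusted p = 0.0538), with the arrays of the 4 groups fitted alone (adjusted p = 0.0511), without both livers numbered 4 (adjusted p = 0.137) and without the muscle-bearing livers (adjusted p = 0.235). H2az1 lost this call without transgenic liver 2 of week 20 (adjusted p = 0.0915, the highest of 14 such losses), without the filter (adjusted p = 0.0564), under quantile normalisation (adjusted p = 0.061), without both livers numbered 4 (adjusted p = 0.0892), without the muscle-bearing livers (adjusted p = 0.119) and with the replicate block (adjusted p = 0.0699). Tns1 kept it under all 31 alternatives.

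**Figure D5:**
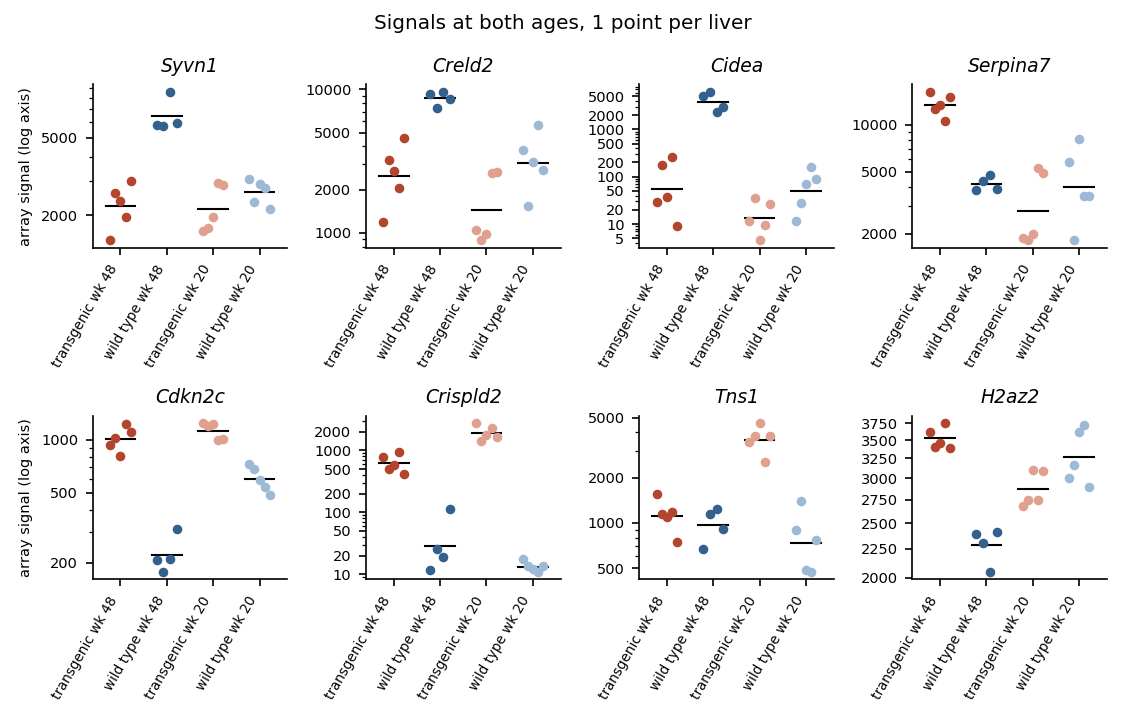
Signals of 8 genes in transgenic and wild-type livers at both ages, on a log axis in array signal units. Each point is 1 liver, from left to right the transgenic and wild-type livers of week 48 and the transgenic and wild-type livers of week 20, with bars at the geometric means; Cidea, Syvn1 and Creld2 are highest in the wild-type livers of week 48, and Serpina7 is highest in the transgenic livers of week 48.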

How the data were processed

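Liver RNA of 34 samples was measured on Affymetrix Mouse Genome 430 2.0 arrays, and the deposited table holds 1 linear signal intensity per probe set, made by the authors with MAS5, per the submitters' processing notes; their version, tests and filters are not given in the sources used here. Of 45101 probe sets the upper 60% by mean signal were kept, and of those with exactly 1 gene symbol the probe set of highest mean signal was taken per gene, which left 13099 genes. Values were log2(signal + 16), fitted with limma 3.58.1 in R 4.3.3 over the 7 groups of the series (lmFit, eBayes with intensity trend), without covariates, and p-values were adjusted by Benjamini-Hochberg over all genes tested; the fit was tested on simulated data. The 3' to 5' ratio of Actb was 1.30 to 1.57 in transgenic and 1.39 to 1.71 in wild-type livers of week 48, and 1.62 to 1.74 and 1.81 to 2.16 at week 20, and no pair of the 9 arrays was a duplicate (highest correlation 0.974). Alternatives covered offsets of 1 and 64, the filter, normalisation, probe set choice, the arrays fitted, the replicate block and each liver left out. Genes were named by rule: all PDGF genes, all muscle and pancreas genes, and the 12 largest rises and 12 largest falls. These rises and falls came from called genes without overlap that stayed called without both livers numbered 4. Clones and genes with provisional symbols were left out of them. Also named were the 4 genes of smallest p per list with other members where needed, and the 5 of smallest p between the ages. The members and lists were chosen with earlier results of these data known. Promoters came from RefSeq (GRCm38.p6).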

Additional observations from a re-analysis of the deposited data

Results flagged for a closer look

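Single livers stood apart from the rest of their group, by Dixon's gap test on linear signals, in 26 of 182 sets of signals (91 genes, 2 groups). For normal, independent values chance alone flags about 1 set in 20. Linear signals need not be normal, and sets that share a liver are not independent. The muscle and pancreas genes were named to check the livers numbered 4, so an excess over chance was not tested. Transgenic liver 4 stood high for Acta1 (24596.5 against 48.6 to 1410.5 in the other transgenic livers), Ckm (18065 against 16.8 to 316), Ctrb1 (4929.7 against 18.3 to 41.1) and Cpa1 (2579 against 5.2 to 7.9), and for the fat genes Adipoq (841 against 11.5 to 64.2) and Fabp4 (8286 against 1927 to 3248). Transgenic liver 5 stood high for the leukocyte genes Camp (1190.1 against 129 to 166), Chil3 (929 against 121 to 243) and Gzmb (222 against 64.2 to 109.6), and for the chemokine Cxcl14 (1362 against 267.5 to 482). Mmp13 was high in transgenic liver 3 (267 against 119 to 155). Syvn1 was high in wild-type liver 3 (8593 against 5712 to 5972), and Camp was low in wild-type liver 1 (9.2 against 15.7 to 16.7).

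Wild-type liver 4 was the high one in 13 of the 26. Besides the muscle genes Acta1 (9473 against 20 to 187 in the other wild-type livers) and Ckm (5121 against 55.9 to 114) and the fat genes Adipoq (681 against 28.6 to 68.5) and Fabp4 (2974 against 725.5 to 983), it stood high for Acta2 (2597.5 against 464 to 699), Lpl (4670.3 against 1263 to 1814.5), Gpx3 (802 against 253 to 322), Cd34 (191 against 29.8 to 46.6), Hey1 (116 against 14.1 to 24.8), Crispld2 (111 against 11.9 to 25.1), Cxcl14 (150.2 against 5.2 to 26.2) and Gpnmb (54.6 against 17.5 to 21). It was also high for Colec11 (4069 against 3659.9 to 3684), by a small amount. Apart from Acta1, Ckm, Acta2, Adipoq and Fabp4, all of these genes were higher in the transgenic livers than even in wild-type liver 4.

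The difference between the genotypes itself differed between week 48 and week 20, by the limma test of that difference, for 11 of the genes named. It was larger in the positive direction at week 48 for Cdkn2c (log2 difference between the ages 1.21), H2az1 (0.79), H2az2 (0.81), Rfc3 (0.96), Rpa3 (1.03), Zwint (0.84) and Serpina7 (2.18). It was lower at week 48 for Crispld2 (-2.29), Eif3b (-0.76), Tns1 (-2.03) and Syvn1 (-1.25).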

How the results depend on the processing

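Under 21 alternatives the count of genes called higher, 1858 from all livers, lay between 1255 and 2225, within 1.5 times of the reported count under each. The 862 genes called lower became 413 after median centring, 541 without both livers numbered 4 and 370 without the 3 livers with muscle transcripts, and 587 to 858 with 1 liver left out. Higher calls then made up 84.3%, 74.5% and 77.2% of calls in these 3 settings, against 68.3%. The 36 genes called in the difference between the ages became 20 without the filter on low signals, 60 after median centring, 57 with averaged probe sets, 8 without both livers numbered 4, 5 without the 3 livers with muscle transcripts and 12 to 66 with 1 liver of either age left out, the week 20 livers having been added as alternatives after the data were seen. With the replicate number as a replicate block the counts were 1853 higher, 866 lower and 28 for the ages. Deviations of same-numbered livers correlated at 0.0023, 0.167, 0.141 and 0.432 for numbers 1 to 4. Of the 4 wild-type livers 2 correlated best with the transgenic liver of their own number. Whether the numbers pair the samples cannot be settled from these values. Of 272 genes called and named with a difference, 187 stayed called under every alternative run and 85 did not, 59 of them without the 3 livers with muscle transcripts, which leaves 3 livers a group. Signs turned for these genes, none of them called after the turn: Cd8a to 0.48 and Uty to -0.12 with averaged probe sets, Tns1 to -0.00813 without the 3 livers with muscle transcripts, and Cdkn1a to -0.0281 under quantile normalisation, -0.11 with averaged probe sets and -0.0837 with the replicate block. With 1 liver left out Cdkn1a ranged over -0.18 to 0.25 and Acta2 over -0.10 to 0.72. The causes were not tested. Signals below the offset of 16 carry no order, and precision is limited by having 5 and 4 arrays.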
